A study of Mus musculus with 18 samples.

Results

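The 10 genes of the LIN28 and let-7 axis described here, Lin28a, Lin28b, Dis3l2, Hmga2, Hmga1, Arid3a, Trim71, Igf2bp1, Igf2bp2 and Igf2bp3, were taken by symbol from a table of 51467 genes. All 10 were found, and all 10 were among the 12851 genes with enough reads to be tested. They were followed in 18 polysome profiling libraries of mouse embryonic stem cells (ESCs) in 6 groups of 3. The groups were the monosome (1 ribosome on the message), low polysome (2 to 4 ribosomes) and high polysome (4 ribosomes or more) fractions of sucrose gradients from wild-type (WT) ESCs and from ESCs in which Dgcr8 was knocked out (KO). DGCR8 is needed to make canonical microRNAs, so KO cells lack both let-7 and the microRNAs that predominate in ESCs. The WT cells were V6.5 and the KO cells a single Dgcr8 KO line, so a difference between genotypes cannot be told apart from a difference between these lines. All cells were grown in serum with LIF and 2i (PD0325901 and CHIR99021) and were treated with cycloheximide at 100 ug/ml for 2 minutes before lysis. There were 3 gradients per genotype, each giving 1 library per fraction. Nothing stated that they came from separate cultures, so the errors below cover the spread between gradients, which may be technical.

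LIN28A and LIN28B are RNA-binding proteins that bind the loop of let-7 precursors and block their maturation. LIN28 recruits a terminal uridylyl transferase, and DIS3L2 is the exonuclease that degrades the uridylated precursor. Mature let-7 in turn represses a set of growth and developmental regulators through sites in their 3′ UTRs, Lin28a and Lin28b among them, and the set is known for its high expression in early embryos and stem cells.

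The seeds of the microRNAs set which messages they can pair with, so they are shown first. RefSeq (GRCm38.p6) held 11 mature mouse microRNAs from 13 loci with the let-7 seed and 5 with the seed of the ESC-enriched cell cycle (ESCC) family. Capitals mark the seed, bases 2 to 8, and the rest of the letters show how little the let-7 relatives differ.
mmu-let-7a-5p: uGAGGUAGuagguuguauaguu
mmu-let-7g-5p: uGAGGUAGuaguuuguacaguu
mmu-miR-98-5p: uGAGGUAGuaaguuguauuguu
mmu-miR-294-3p: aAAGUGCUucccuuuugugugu
mmu-miR-302b-3p: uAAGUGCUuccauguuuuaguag

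The match to the let-7 seed in a message is CTACCTC, searched on the sense strand of the annotated 3′ UTR. Lin28b, Hmga2, Trim71 and Igf2bp1 held 4 matches each, Lin28a and Arid3a 2, Igf2bp2 and Igf2bp3 1, and Dis3l2 and Hmga1 0 in their principal transcripts. Hmga1 held 1 when all its transcripts were searched. At least 1 match was present in 9.43% of the 11550 tested genes with a 3′ UTR, at least 2 in 132 genes, and 4 or more in 8 genes (0.0693%). Of those 8, 4 are the members just named. These genes are long-standing let-7 targets, so their sites are a description of how the list was drawn up and not a result. The UTRs also differ in length, from 347 bases in Dis3l2 to 6337 in Igf2bp1, and the share of genes with a match was 35.3% among genes with a UTR about as long as that of Igf2bp1. The matches of Lin28a, Lin28b and Hmga2 are printed with 11 bases on either side, the match in capitals, because these are the LIN28 pair and the target with matches whose translation level was called changed.
Lin28a, chr4:134005179-134005207, minus strand: agcctgttgaaCTACCTCatttttgccga
Lin28a, chr4:134004541-134004569, minus strand: tcgccacaaacCTACCTCactgtgttgaa
Lin28b, chr10:45381012-45381040, minus strand: gggcgggaagtCTACCTCatgcaagcaca
Lin28b, chr10:45378638-45378666, minus strand: cttgttagtaaCTACCTCtgagtttgaca
Lin28b, chr10:45378466-45378494, minus strand: acagcacatggCTACCTCccagctaccac
Lin28b, chr10:45377050-45377078, minus strand: gatggcaccgaCTACCTCttcaatcactt
Hmga2, chr10:120364214-120364242, minus strand: acattcaatttCTACCTCagcatcagttg
Hmga2, chr10:120362977-120363005, minus strand: actcctcaataCTACCTCtgaatgctaca
Hmga2, chr10:120362539-120362567, minus strand: tttgcaaggaaCTACCTCcacacttccaa
Hmga2, chr10:120361681-120361709, minus strand: aaaacacactaCTACCTCttaagtcccag

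Both Lin28a matches, the first of Lin28b and the first of Hmga2 are followed by an A, the letter that makes a 7-base match an 8mer site. The match to the ESCC seed, AGCACTT, was found once each in Lin28b, Trim71 and Igf2bp1 and in none of the other 7 members, against 15.7% of tested genes with a 3′ UTR. Among genes with a UTR about as long, the share was 44.5% for Lin28b, 55.4% for Trim71 and 61.0% for Igf2bp1. They are shown because the ESCC family predominates among the microRNAs of WT ESCs and is lacking in KO.
Lin28b, chr10:45378513-45378541, minus strand: tcactgatatgAGCACTTgctcattcaca
Trim71, chr9:114510071-114510099, minus strand: aattggtgctaAGCACTTtggagagtgta
Igf2bp1, chr11:95960235-95960263, minus strand: ttattacaaaaAGCACTTgggatatttgg

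The libraries held 1151649 to 4984833 counts each, and 3 counts, used as the floor, corresponded to 0.602 to 2.61 CPM (counts scaled to 1000000 per library). All 10 ESC markers examined, Pou5f1, Sox2 and Nanog among them, exceeded 3 counts in every library, and their summed level was 3476 to 6099 CPM. Of 7 fibroblast (feeder) markers, Thy1 and Col1a1 were read in every library and Dcn and Postn in no WT library, and their summed level was 7.01 to 12.7 CPM in WT and 2.33 to 7.83 CPM in 8 of the 9 KO libraries. Dgcr8 itself was read at 26.1 to 79.6 CPM in WT and 8.73 to 58.6 CPM in KO libraries, a count of 3′ ends that would not show a deletion upstream in the gene. QuantSeq reads the 3′ end of each message, so levels are compared between libraries and not between genes.

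The first KO low polysome library stood apart from the other 17, before any comparison of the members. In it 25 genes had at least 30 counts and at least 4 times the CPM of both other libraries of its group, against 1 gene in the second KO low polysome library and 0 in the other 16. Lin28a was among the 25. The embryonic globins Hbb-y, Hbb-bh1 and Hba-x, made by primitive red cells, stood at 425, 130.3 and 59.6 CPM there, against at most 43.1, 17.2 and 7.37 CPM in any other library. H19 and Igf2, imprinted genes abundant in the embryo, were 29.5 and 4.74 times their mean in the other 2 KO low polysome libraries. The summed fibroblast markers were at 22.1 CPM there, with all 7 read. Of the members, Lin28a was 10.3 times, Arid3a 2.33 times and Hmga2 2.05 times their mean in the other 2 libraries of the group, and Hmga1 was 0.527 times. The other 6 members were between 0.832 and 1.28 times. The part that the source of these reads has in the members' values was not tested, and low polysome results of members whose call or direction changed without that library are given both ways.

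Lin28a (ENSMUSG00000050966.9, chr4:134003330-134018841) was the member with the widest gap between the genotypes. The members were chosen by symbol with earlier results known, and Lin28a was selected on its lower level in the KO libraries of these same counts, so that difference is a description and gets no test. In WT monosomes Lin28a stood at 48.2, 42.0 and 36.3 CPM, in low polysomes at 54.3, 51.9 and 51.2 CPM and in high polysomes at 46.8, 44.7 and 37.9 CPM. In KO monosomes it stood at 2.78, 3.50 and 1.57 CPM, in low polysomes at 14.8, 1.28 and 1.58 CPM and in high polysomes at 1.65, 2.18 and 0.690 CPM. Every KO library lay below every WT library, and 8 of the 9 KO libraries lay near the floor.

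The KO values of Lin28a rest on few reads, 18, 58 and 15 over the 3 libraries of the monosome, low polysome and high polysome groups, against 178, 510 and 363 in WT. From these sums the WT level was 16.4-fold higher in monosomes (95% interval 10.1 to 28.3), 9.19-fold in low polysomes (6.99 to 12.3) and 30.2-fold in high polysomes (18.1 to 54.6). Without the first KO low polysome library, which held 48 of the 58 reads, the low polysome figure was 36.3-fold (19.6 to 76.1). The intervals are exact binomial intervals and cover counting error only. The model fitted to all genes gave log2 changes of -3.99 ± 0.51 (SE), -4.02 ± 0.40 and -4.91 ± 0.53 for the 3 fractions, and -5.06 in low polysomes without that library. Lin28a reached 3 CPM in 9 of 9 WT and in 2 of 9 KO libraries, so it was tested at all through its WT level.

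The first KO low polysome library held Lin28a at 28.1% of the mean WT low polysome level, where the other 2 held 2.72%. H19 stood at 315% of its mean WT low polysome level there and at 10.7% in the other 2. No gene met a rule laid down for messages close to absent from the KO, 50 CPM or more in every WT library and 3 counts or fewer in every other KO library. Under a looser rule, chosen after seeing the data, the 5 genes Cryge, Hrk, Prmt8, Klk8 and Xlr3a together held 6 reads in that library, 1.84% of their WT low polysome level, against 1.05 to 3.83% for such genes in the other KO libraries. Igf2bp3, lower in KO, was at 49.5 CPM there, beside 47.4 and 46.2 CPM in the other KO low polysome libraries and 81.5 ± 5.18 CPM (SD, n = 3) in WT. The looser rule rests on 6 reads in the first KO low polysome library, and the source of the Lin28a reads there was not tested.

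**Figure D1:**
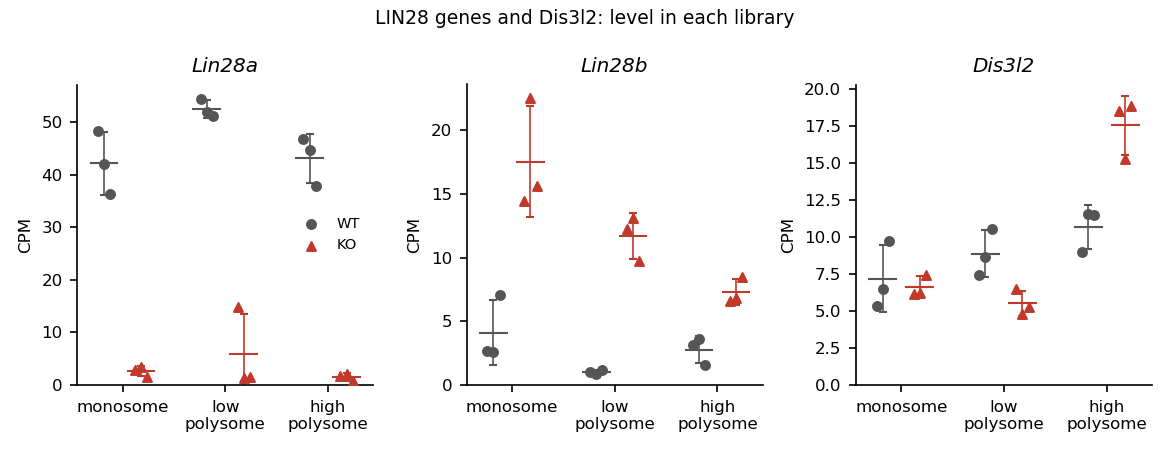
Level of Lin28a, Lin28b and Dis3l2 in each of the 18 libraries (y axis, CPM) by fraction, WT as circles and KO as triangles, with the mean and SD of 3 libraries. Lin28a of the first KO low polysome library, at 14.8 CPM, is the only KO point clear of the floor, and all 9 KO libraries of Lin28b lie above the WT libraries of the same fraction.

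Lin28b (ENSMUSG00000063804.8, chr10:45376620-45486395), the paralog of Lin28a, differed in the opposite direction. It stood at 2.68, 2.58 and 7.07 CPM in WT monosomes, 1.06, 0.837 and 1.20 CPM in WT low polysomes and 3.12, 3.60 and 1.59 CPM in WT high polysomes, 3 to 10 reads per library. In KO it stood at 14.5, 22.5 and 15.7 CPM in monosomes, 12.3, 13.1 and 9.72 CPM in low polysomes, and 6.61, 6.83 and 8.50 CPM in the heaviest fraction. The genotypes did not overlap in any fraction, and the level went down from monosomes to high polysomes in KO.

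Calls required a log2 change of more than 1 in size with an adjusted p below 0.05, and Lin28b was called higher in KO in all 3 fractions, as were 5.49% of all genes tested. The log2 changes were 2.20 ± 0.43 (SE, adjusted p = 7.77e-05) in monosomes, 3.32 ± 0.49 (adjusted p = 3.06e-07) in low polysomes, with 1.46 ± 0.40 (adjusted p = 0.00177) in high polysomes. From summed reads, 16, 10 and 23 in WT against 124, 118 and 79 in KO, the KO level was 4.67-fold higher (2.77 to 8.42), 11.3-fold (5.93 to 24.2) and 2.75-fold (1.71 to 4.58). The change was smaller in high than in low polysomes: the difference between those changes was -1.86 ± 0.63 (SE, adjusted p = 0.0353). That call was lost without WT gradient 1 or 2 or KO gradient 1 or 2, with adjusted p = 0.0576 to 0.243. Within KO cells the high polysome to monosome ratio was -1.23 ± 0.26 on the log2 scale (adjusted p = 6.39e-05). Without KO gradient 2 that value was -0.98, under the fold threshold. In WT the same ratio was -0.49 ± 0.53 (adjusted p = 0.451), and the ratios of the genotypes differed by -0.74 (95% interval -1.90 to 0.41), which was not called. It was -0.322 without WT gradient 2 and -1.498 without WT gradient 3.

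Dis3l2 (ENSMUSG00000053333.15, chr1:86703808-87050095), the exonuclease for uridylated let-7 precursors, differed between the genotypes along the gradient. It stood at 5.36, 6.45 and 9.73 CPM in WT and 6.12, 6.21 and 7.44 CPM in KO monosomes. In low polysomes it stood at 7.40, 8.65 and 10.5 CPM in WT and 6.45, 4.81 and 5.26 CPM in KO. In high polysomes it stood at 8.97, 11.5 and 11.5 CPM in WT and 18.5, 15.2 and 18.8 CPM in KO. KO libraries lay below WT in low polysomes and above WT in high polysomes, without overlap.

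The log2 changes of Dis3l2 from WT to KO were -0.06 ± 0.38 (SE, adjusted p = 0.917) in monosomes, -0.68 ± 0.28 (adjusted p = 0.0400, and -0.79 without the first KO low polysome library) in low polysomes, with 0.71 ± 0.22 (adjusted p = 0.00523) in high polysomes, none past the fold threshold. The difference between the high and low polysome changes was 1.39 ± 0.36 and was called (adjusted p = 0.00504), as it was without that library. In KO the high polysome to monosome ratio of Dis3l2 was 1.37 ± 0.27 (adjusted p = 2.81e-05), and in WT 0.60 ± 0.34 (adjusted p = 0.133). The change between them, 0.77 (95% interval -0.09 to 1.62), was not called. Dis3l2 shares its strand with 9 annotated genes that lie within or across it, so its counts are uncertain where exons overlap.

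Of the let-7 targets, Hmga2 and Hmga1, which encode small AT-hook proteins that bind DNA, moved along the gradient. Hmga2 (ENSMUSG00000056758.14, chr10:120361275-120476469) stood at 21.4, 34.9 and 30.1 CPM in WT and 33.4, 37.7 and 40.0 CPM in KO monosomes. In low polysomes it stood at 20.8, 22.04 and 25.6 CPM in WT and 43.0, 21.5 and 20.5 CPM in KO. In high polysomes it stood at 19.5, 26.3 and 25.8 CPM in WT and 9.92, 14.6 and 11.3 CPM in KO. The genotypes overlapped in monosomes and low polysomes, and every KO high polysome library lay below every WT one.

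Hmga2 was not called in monosomes (log2 0.39 ± 0.24, SE, adjusted p = 0.212) or low polysomes (0.21 ± 0.21, adjusted p = 0.406, and -0.12 without the first KO low polysome library). It fell by 1.01 ± 0.25 (adjusted p = 0.000563) in high polysomes, a value so close to the fold threshold that it dropped below it without WT gradient 2 or 3 or KO gradient 1 or 3 (-0.912 to -0.968). Hmga2 was also under the threshold in high polysomes with DESeq2 (-0.999), with no filter (-0.996) and in a fit of only the groups compared (-0.976). Its high polysome to monosome ratio was -0.25 ± 0.25 in WT (adjusted p = 0.420) and -1.65 ± 0.24 in KO (adjusted p = 1.18e-07). The change in this ratio, called the translation level, was -1.40 ± 0.35 (adjusted p = 0.00193), and leaving out any gradient gave -1.54 to -1.30. The change of its high to low polysome ratio, -1.23 ± 0.32 (adjusted p = 0.00639), was -0.889 without the first KO low polysome library and was then under the fold threshold. It was also lost without WT gradient 2 (adjusted p = 0.0568) or KO gradient 1 (adjusted p = 0.0730).

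Hmga1 (ENSMUSG00000046711.15, chr17:27556497-27563674) was lower in KO in each fraction, and the gap widened toward the high polysomes. It stood at 67.6, 58.7 and 51.3 CPM in WT and 44.5, 31.8 and 41.1 CPM in KO monosomes. In low polysomes it stood at 63.1, 44.1 and 43.1 CPM in WT and 9.53, 16.98 and 19.2 CPM in KO. In high polysomes it stood at 40.2, 30.3 and 30.3 CPM in WT and 11.9, 8.08 and 3.91 CPM in KO. No KO library overlapped the WT libraries of its fraction.

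The change of Hmga1 in monosomes was -0.63 ± 0.22 (SE, adjusted p = 0.0206), under the fold threshold. Hmga1 fell by 1.72 ± 0.23 in low polysomes (adjusted p = 3.60e-08) and by 2.27 ± 0.29 in high polysomes (adjusted p = 1.27e-08). Without the first KO low polysome library the low polysome change was -1.42 and was still called. Its translation level was -0.84 ± 0.22 in WT (adjusted p = 0.00112) and -2.48 ± 0.29 in KO (adjusted p = 1.22e-09). The change was -1.64 ± 0.37 (adjusted p = 0.000637), and -1.06 without KO gradient 3, whose high polysome library held 17 reads. The low polysome to monosome ratio of Hmga1 changed by -1.09 ± 0.32 (adjusted p = 0.0176). This call was lost without WT gradient 1 (adjusted p = 0.0595), without KO gradient 1 (adjusted p = 0.133) and without the first KO low polysome library alone (-0.793, adjusted p = 0.0931).

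Hmga1 has near-copies elsewhere in the genome, among them Hmga1b, and reads that fit more than 1 place were discarded, so its counts are uncertain. Hmga1b was read at 10.4 ± 3.75 CPM (SD, n = 3) in WT and 6.29 ± 2.25 CPM in KO monosomes. Its means were 4.02 ± 0.271 and 1.68 ± 1.28 CPM in WT and KO high polysomes.

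**Figure D2:**
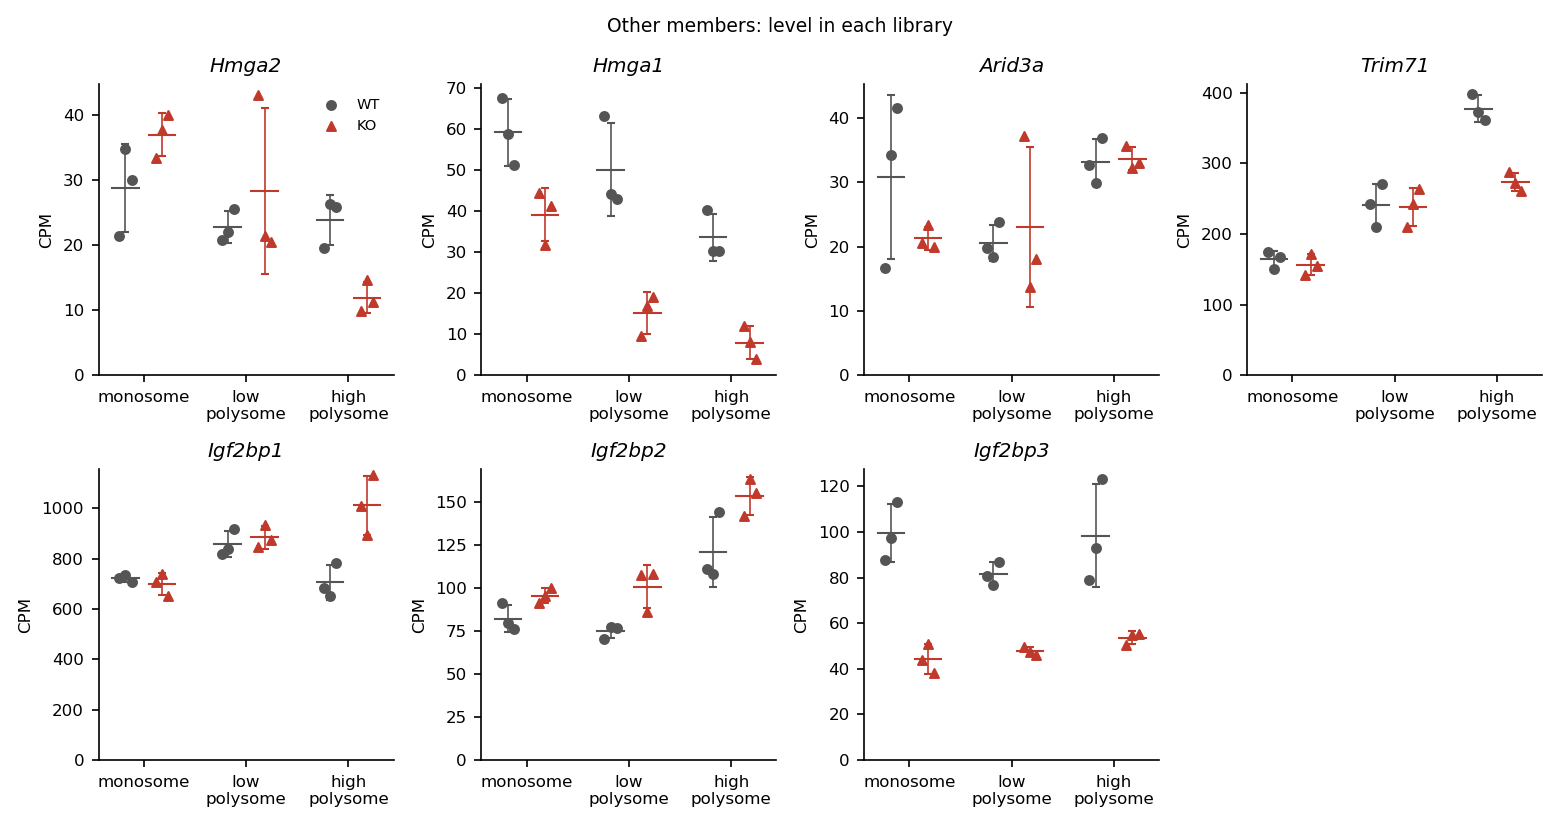
Level of the other 7 members in each library (y axis, CPM) by fraction, WT as circles and KO as triangles, with the mean and SD of 3 libraries. Hmga1 is lower in KO in all 3 fractions and Hmga2 in high polysomes only, at 9.92 to 14.6 CPM, while the first KO low polysome library is the highest of its group for Hmga2 (43.0 CPM) and Arid3a (37.2 CPM).

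Over the 9 members other than Lin28a, 2 of 9 were called for the change in translation level, Hmga1 and Hmga2, both lower in KO, against 15.1% of all genes tested. For the low polysome to monosome ratio 1 of 9 was called against 5.03%, and for the high to low polysome ratio 3 of 9 (Dis3l2 higher, Lin28b and Hmga2 lower) against 5.18%. These ratios share libraries with each other and with the comparisons within a fraction. The median change in translation level over the 9 was 0.13, and 0.01 over all genes. Lin28a is left out of these counts, as its KO libraries held too few reads, 3 to 7 each in high polysomes, for its ratios to be tested.

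In all genes the change in translation level moved with the length of the coding sequence (CDS). Among 11763 protein-coding genes divided into 10 classes by CDS length, the median change was -0.94 for the shortest class and 0.62 for the longest. Hmga1 and Hmga2 have the shortest CDS of the members, 321 and 324 bases, and their changes were -0.70 and -0.46 relative to the median of their class, with 14.7% and 24.8% of the class lower still. Trim71, with 2565 bases, was -0.89 below the median of its class, and 9.04% of that class lay lower. The other 7 members lay from -0.41 to 0.36 of the median of their class. The part of CDS length in the members' results was not tested.

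**Figure D3:**
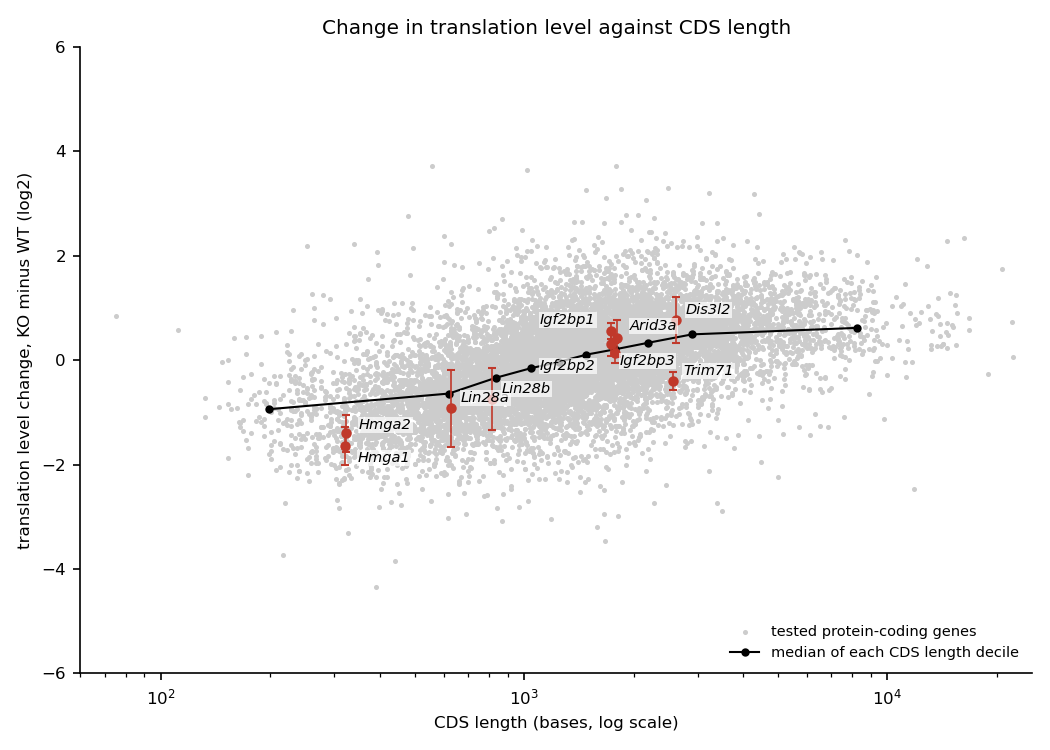
Change in translation level from WT to KO (y axis, log2) against CDS length (x axis, bases, log scale) for 11762 tested protein-coding genes in grey, with 1 gene outside the axes, the median of each CDS length class in black at the geometric middle of the class (the longest class drawn as ending at 20000 bases) and the 10 members in red with their SE. Hmga1 and Hmga2 lie at the short end, where the median is -0.94, and Trim71 lies below the median of genes of its length.

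Trim71 (ENSMUSG00000079259.2, chr9:114507133-114564369), also known as Lin41, encodes an RNA-binding ubiquitin ligase of stem cells. It stood at 174, 150.4 and 168 CPM in WT and 142, 172 and 155 CPM in KO monosomes. In low polysomes it stood at 243, 210.3 and 271 CPM in WT and 210.2, 242 and 263 CPM in KO. In high polysomes it stood at 399, 373 and 361 CPM in WT and 287, 272 and 261 CPM in KO. The genotypes overlapped in the first 2 fractions and were apart in the third, with KO lower.

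Trim71 was the member with a called translation level in WT, 1.20 ± 0.13 (SE, adjusted p = 1.07e-10), where 30.1% of all genes were called, and in KO the value was 0.80 ± 0.12 (adjusted p = 2.37e-07), under the fold threshold. The change between them, -0.40 ± 0.17 (adjusted p = 0.0820), did not pass. Trim71 differed by -0.47 ± 0.11 in high polysomes (adjusted p = 0.000573), with no call since the fold was small. The changes in monosomes and low polysomes were -0.07 ± 0.13 and -0.01 ± 0.12, the latter 0.075 without the first KO low polysome library. In KO, 4 of the 9 members other than Lin28a had a called translation level (Dis3l2 higher, Lin28b, Hmga2 and Hmga1 lower), against 43.0% of all genes.

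The 3 Igf2bp genes encode a family of RNA-binding proteins that stabilise and localise messages, and their values differed among the 3. Igf2bp3 (ENSMUSG00000029814.10, chr6:49085223-49214957) stood at 87.7, 97.5 and 113.2 CPM in WT and 43.9, 50.9 and 38.0 CPM in KO monosomes. In low polysomes it stood at 80.7, 76.7 and 87.0 CPM in WT and 49.5, 47.4 and 46.2 CPM in KO. In high polysomes it stood at 78.8, 93.0 and 123.2 CPM in WT and 50.3, 55.0 and 55.4 CPM in KO. All KO libraries lay below all WT libraries. It fell by 1.16 ± 0.17 (SE, adjusted p = 4.64e-07) in monosomes, and the changes in low and high polysomes, -0.77 ± 0.15 (adjusted p = 2.39e-05) and -0.86 ± 0.14 (adjusted p = 2.22e-06), were under the fold threshold. Its translation level changed by 0.30 ± 0.22 (adjusted p = 0.329), which was not called.

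Igf2bp1 (ENSMUSG00000013415.9, chr11:95957163-96005940) stood at 724, 736 and 707 CPM in WT and 708, 741 and 652 CPM in KO monosomes. In high polysomes it stood at 683, 652 and 785 CPM in WT and 1011, 895 and 1131 CPM in KO. The genotypes overlapped in monosomes and were apart in high polysomes, with KO higher. In low polysomes WT stood at 818 to 917 CPM and KO at 846 to 935 CPM. The changes were -0.05 ± 0.11 (SE, adjusted p = 0.768) in monosomes and 0.52 ± 0.11 (adjusted p = 5.22e-05) in high polysomes. The change in its translation level was 0.57 ± 0.15 (adjusted p = 0.00433). Both values had an adjusted p under 0.05 and a fold too small for a call.

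Igf2bp2 (ENSMUSG00000033581.16, chr16:22059009-22163299) stood at 76.0 to 91.1 CPM in WT and 91.2 to 99.9 CPM in KO monosomes, at 70.2 to 77.3 and 86.2 to 108 CPM in low polysomes and at 108 to 144 and 142 to 163 CPM in high polysomes. KO lay above WT in monosomes, narrowly, and in low polysomes, and the genotypes overlapped in high polysomes. The changes were 0.22 ± 0.15 (SE, adjusted p = 0.269), 0.42 ± 0.13 (adjusted p = 0.00647) and 0.35 ± 0.12 (adjusted p = 0.0147), with no call. Arid3a (ENSMUSG00000019564.12, chr10:79927043-79955018), an AT-rich DNA-binding transcription factor, stood at 16.7 to 41.6 CPM in WT and 19.98 to 23.3 CPM in KO monosomes. In high polysomes its range was 29.9 to 36.9 CPM for WT and 32.3 to 35.7 CPM for KO. It was called in no comparison. Its low polysome change was 0.03 ± 0.24 (adjusted p = 0.922), and -0.36 without the first KO low polysome library.

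**Figure D4:**
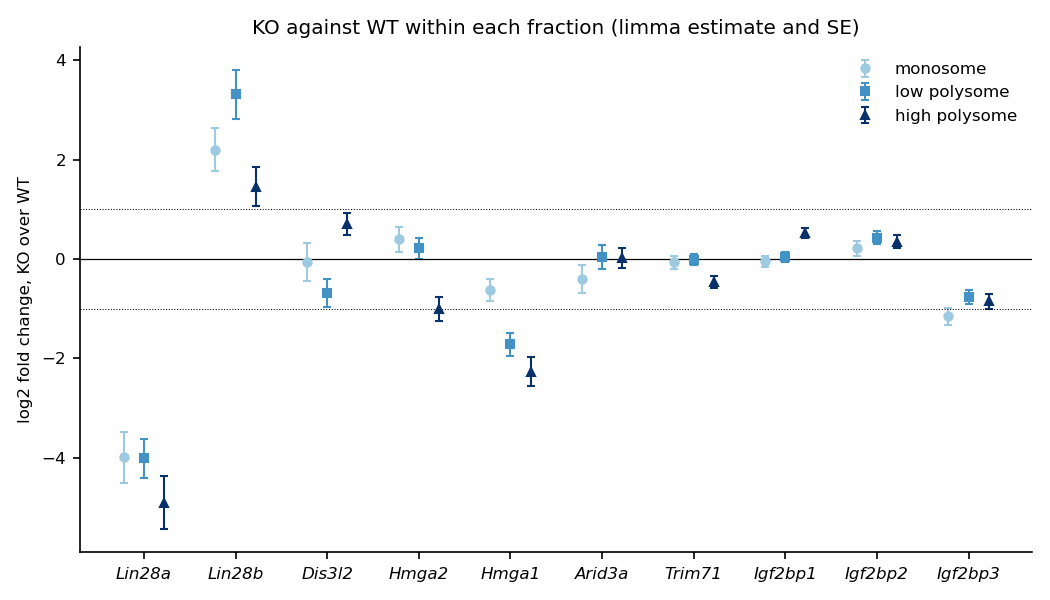
Log2 fold change of KO over WT (y axis) for the 10 members in monosomes (circles), low polysomes (squares) and high polysomes (triangles), as limma estimates with their SE. Dotted lines mark the fold threshold of 1 on the log2 scale. Lin28a lies between -3.99 and -4.91 and Lin28b between 1.46 and 3.32, and the values of Hmga1 go down from monosomes to high polysomes.

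Within the fractions, 2 of the 9 members other than Lin28a were called in monosomes (Lin28b higher, Igf2bp3 lower), where 18.1% of all genes were called. In low polysomes 2 of 9 were called (Lin28b higher, Hmga1 lower) against 25.0%, and in high polysomes 3 of 9 (Lin28b higher, Hmga2 and Hmga1 lower) against 33.1%. Libraries of KO and WT did not overlap for 4 of the 9 members in monosomes, 5 in low polysomes and 7 in the high ones, against 49.2%, 57.0% and 63.6% of all genes. The shares among members were thus near those of all genes. Of the 4 members with 4 let-7 matches, Lin28b was called higher in KO in 3 fractions, Hmga2 lower in 1, and Trim71 and Igf2bp1 in none.

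The ratio of high polysomes to monosomes within each gradient shows how the members spread. In WT the log2 ratio of Hmga1 was -0.74, -0.94 and -0.75 in the 3 gradients, and in KO -1.84, -1.89 and -3.18. For Hmga2 it was -0.13, -0.40 and -0.22 in WT and -1.68, -1.33 and -1.76 in KO. For Dis3l2 it was 0.67, 0.77 and 0.22 in WT and 1.49, 1.20 and 1.26 in KO. The genotypes did not overlap for these 3 genes, with KO lower for Hmga1 and Hmga2 and higher for Dis3l2. Trim71, at 1.10 to 1.31 in WT and 0.66 to 1.01 in KO, and Igf2bp1, at -0.17 to 0.15 and 0.27 to 0.79, were also apart, in opposite directions. Lin28b, Igf2bp2, Igf2bp3 and Arid3a overlapped. The share of all genes whose gradients were apart on this ratio was not determined, so these separations are descriptions. Lin28a was at -0.04 to 0.09 in WT and -0.70 to -0.54 in KO, where the prior count of 2 weighs heavily on libraries of 3 to 9 reads.

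**Figure D5:**
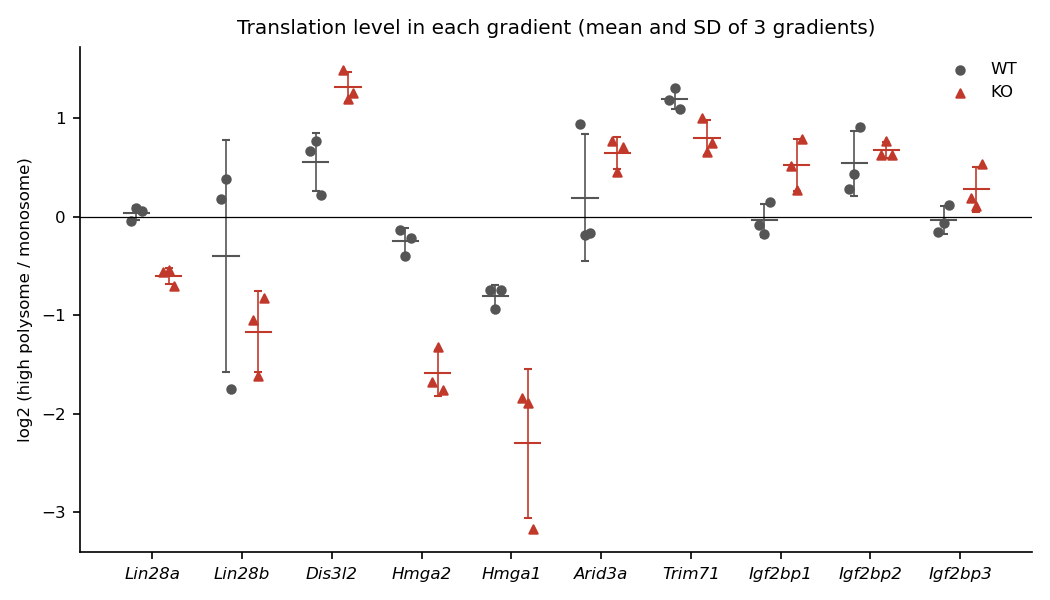
Log2 ratio of high polysome to monosome CPM (y axis, prior count 2) in each gradient for the 10 members, WT as circles and KO as triangles, with the mean and SD of 3 gradients per genotype. Hmga1 and Hmga2 are lower in every KO gradient and Dis3l2 is higher, from 1.20 to 1.49.

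Genes whose profile over the 18 libraries was most like that of a member were named by the highest Pearson r of log2 CPM among 7319 other protein-coding genes with a mean of 50 counts or more. The libraries fall into 2 genotypes and share depth and scaling, so r is a description. Nt5dc2 (r = 0.966), Cbln1 (0.953), Gins2 (0.948), Cacng6 (0.948) and Bex1 (0.945) were most like Lin28a, each lower in KO, as in Cbln1 with mean levels of 44.6 to 98.1 CPM over the WT groups and 2.71 to 8.59 CPM over the KO groups. Sox13 (0.939), Mbp (0.935) and Aim2 (0.918) were most like Lin28b, among 7320 genes. Skp1a (0.957), Fgd1 (0.949) and Psmb2 (0.946) were most like Trim71, Lmo4 (0.860), Msl2 (0.847) and Ubald1 (0.846) most like Hmga2, and Cstf2 (0.813), Ncl (0.808) and Tfg (0.797) most like Arid3a.

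The rest of the pathway was followed in lists chosen with earlier results of these data known. Of 15 genes that make, bind or degrade let-7 or its precursors, all tested, 1 was called lower and 0 higher for the change in translation level, against 8.81% and 6.29% of all genes. The called gene was Tent2, a cytoplasmic poly(A) polymerase, at -1.91 ± 0.69 (SE, adjusted p = 0.0321). This call rests on few reads, 167 over the 18 libraries, with a mean near the floor in KO high polysomes (1.27 CPM). The uridylyl transferases Tut4 and Tut7 were at 0.15 ± 0.31 and -0.27 ± 0.30, and Dicer1, which cuts the precursor, was at 0.63 ± 0.29 (adjusted p = 0.101). In the comparison of KO with WT 0 of the 15 were called in monosomes and low polysomes, where 18.1% and 25.0% of all genes were, and 2, Tent2 and Dgcr8, were lower in high polysomes, against 17.9%. The median change in translation level over the list was 0.33, and 0.01 over all genes.

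Of 30 further let-7 targets, 25 were tested, and 5 (Myc, Acvr1c, Thbs1, Stard13 and Hand1) had 0 to 31 counts over the 18 libraries. For the change in translation level 3 of the 25 were called higher and 2 lower, against 6.29% and 8.81% of all genes. Those higher were Insr (2.27 ± 0.52, SE), Igf1r (1.44 ± 0.31) and Lrig3 (1.22 ± 0.25), and those lower included Nras (-1.10 ± 0.20). The change in translation level moved with CDS length in all genes. The part of CDS length in the values of this list and of the list above was not tested. The KO monosome level of Insr was near the floor, at a mean of 2.43 CPM. The KO to WT change of Insr was -1.79 ± 0.48 in monosomes and 0.48 ± 0.20 in high polysomes. Insr and Igf1r encode the receptors for insulin and IGF1, and Nras encodes a small GTPase. In high polysomes 11 of the 25 were called higher in KO, against 15.1% of all genes, and 4 lower, against 17.9%. In monosomes 5 were higher and 2 lower, against 8.43% and 9.63%, and in low polysomes 6 higher and 1 lower, against 11.4% and 13.6%, counts that were the same without the first KO low polysome library. The widest mean differences over the fractions were those of Ccnd2 (2.68 on the log2 scale, and 2.49 without that library), Cdk6 (1.88) and Prtg (1.86), higher in KO, and Hras (-1.63), lower. Ccnd2 encodes a cyclin and Cdk6 a kinase that drive entry into S phase. The list's median KO to WT change in high polysomes was 0.81, and -0.08 over all genes.

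Of 5 host transcripts of let-7 found in the table, 2 were tested, Wdr82 and Huwe1, and neither was called in the comparison of KO with WT. Wdr82 changed by -0.59 ± 0.19 (SE) and Huwe1 by 0.79 ± 0.22 in translation level, both under the fold threshold. The entries Mir99ahg, Mirlet7d and Mirlet7i held 1, 0 and 0 counts over all libraries, and counts of 3′ ends of polyadenylated RNA say nothing of mature let-7.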

How the data were processed

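Polysome profiling libraries (QuantSeq 3′ FWD) were made from 6 gradients, spun at 35000 rpm for 3 hours in 10 to 50% sucrose, 3 per genotype. The authors deposited raw counts of reads per gene: reads were trimmed with cutadapt 1.14, aligned to mm10 with STAR 2.5.3a, kept where they aligned to a single place, and counted on the sense strand over GENCODE M14 exons with featureCounts 1.5.3 (tools and versions per the submitters' processing notes and the study's methods). No use of molecular identifiers was stated, so PCR copies count as reads. The deposited table also gives a gene length, which was not used.

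The 92 spike-in entries (0.000522 to 0.00215% of reads) were left out. A gene was tested if 3 libraries or more reached 3 CPM, which 12851 genes did. All 18 libraries entered a single limma-voom model on TMM-normalised counts (limma 3.58.1, edgeR 4.0.16, R 4.3.3), which had 6 group means without a block. Two-sided p-values were adjusted by the Benjamini-Hochberg method across the whole set of genes. All adjusted p-values come from this fit, except those given for fits without a gradient or without the first KO low polysome library. Translation level means the high polysome over monosome ratio, and a change in it is the genotype by fraction interaction. CPM levels use the total over tested genes times the TMM factor. The exact binomial intervals on summed reads and the floor of 3 counts cover counting error only. The 95% intervals of changes in translation level rest on the SE of the fit, which covers the spread between libraries. Symbols, transcripts and coordinates (1-based) come from GENCODE M21 on the same build (GRCm38), matched for 51274 genes. The fit of the change in translation level was tested on simulated counts with known changes.

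The members and lists were chosen with earlier results of these data known. All 10 members are named. From each further list the up to 3 genes higher and 3 lower with the largest called change in translation level are named, and the same for the mean KO to WT change among genes called alike in at least 2 fractions. A gene that this rule would name is not reported here. Tut4, Tut7, Dicer1, Wdr82, Huwe1 and the genes standing apart in the first KO low polysome library were named after their values were seen.

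Fractions of a gradient are paired within a genotype, as the labels state that each sample gave all fractions. Deviations from the group means of same-numbered fractions correlated at 0.032 to 0.135 within a genotype. Across genotypes only the number is shared (0 to 0.102 in the same fraction). A fit with a block is an alternative, by gradient within a genotype for ratios and their changes, and by replicate number for KO against WT. Other alternatives are edgeR, DESeq2 1.42.0, other scalings and filters, and leaving out each gradient.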

Additional observations from a re-analysis of the deposited data

Results flagged for a closer look

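The KO to WT change of Hmga2 and Hmga1 differed between high polysomes and monosomes by the interaction test across all genes, one of the comparisons in which 15.1% of all genes were called. The difference was -1.40 ± 0.35 (SE, adjusted p = 0.00193) for Hmga2 and -1.64 ± 0.37 (adjusted p = 0.000637) for Hmga1, lower in all 3 KO gradients than in all 3 WT gradients for both genes. Their CDS are the shortest of the members (324 and 321 bases), and the median difference over genes of like CDS length was -0.94. Groups of 3 libraries are too small for a rule on single outlying samples. The share of all genes with all 3 KO gradients below all 3 WT gradients was not determined.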

How the results depend on the processing

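Of the counts of members called, those for the change in translation level and for KO against WT in monosomes were 2 each under every alternative but the removal of the fold threshold, which made them 3. Without that threshold 5 members were called for the high to low polysome ratio, 5 of 9 in low polysomes, 8 of 9 in high polysomes, 3 for the translation level in WT and 8 for that in KO. The share of all genes called without the threshold was not determined. The shares of all genes given above hold for the stricter rule and cannot be set against these counts. The call for the low polysome to monosome ratio fell to 0 with no filter and ran from 0 to 1 over the fits leaving out a gradient or the first KO low polysome library, and the count for the high to low polysome ratio ran from 1 to 3. Over those fits the count in high polysomes ran from 2 to 3 and that for the translation level in KO from 3 to 4. With total-count scaling Igf2bp3 passed the fold threshold in high polysomes (-1.081). A block was the gradient within a genotype for ratios and their changes, and the replicate number for KO against WT within a fraction. With it 2, 1, 3, 2, 2, 3, 1 and 4 members were called in the 8 comparisons, and the block changed no call. Total-count scaling shifted the median change in translation level over all genes by -0.328, that of KO against WT in high polysomes by -0.224 and in monosomes by 0.105, and the high to low polysome change by -0.199. Under it small values that were not called changed sign: the change in translation level of Igf2bp2 (-0.19) and Igf2bp3 (-0.027), the monosome change of Dis3l2 (0.044), Trim71 (0.038) and Igf2bp1 (0.056), and the high polysome change of Arid3a (-0.21). Igf2bp2 was also at -0.072 relative to its CDS length class. With no filter the monosome changes of Trim71 and Igf2bp1 were 0.005 and 0.017 and the low polysome change of Trim71 0.012. A 1 CPM filter gave 0.003 for the latter, and a 10 CPM filter gave -0.007 for Igf2bp1 and -0.019 for Arid3a in low polysomes and -0.036 for Arid3a in high polysomes. Fitting only the groups compared gave 0.002 for Igf2bp1 in monosomes. Leaving out libraries, the change in translation level of Igf2bp2 ran from 0.00 to 0.32. The monosome changes ran from -0.24 to 0.14 for Dis3l2 and -0.092 to 0.028 for Igf2bp1, the low polysome changes from -0.12 to 0.42 for Hmga2, -0.13 to 0.075 for Trim71 and -0.36 to 0.31 for Arid3a, and the high polysome change of Arid3a from -0.03 to 0.10. The cause of these sign changes was not tested. Depth limits Lin28a in KO and Lin28b in WT, which rest on 3 to 10 reads in most libraries.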

Other observations

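Among the 8 tested genes with 4 or more let-7 matches, 4 are not members. Nr6a1, a nuclear receptor that lowers pluripotency gene expression on differentiation, held 8 matches, and it was higher in KO monosomes by 1.07 ± 0.12 on the log2 scale (SE, adjusted p = 1.66e-09), a call, with 0.51 ± 0.11 and 0.71 ± 0.11 in low and high polysomes under the fold threshold. Trim6 held 6 matches and was at -0.36 ± 0.13, -0.20 ± 0.13 and 0.08 ± 0.12 in the 3 fractions. Hic2 held 4 and was at -0.63 ± 0.12, -0.48 ± 0.12 and -0.33 ± 0.12. D10Wsu102e held 4, in an annotated 3′ UTR of 122583 bases, and was at -0.08 ± 0.15, 0.06 ± 0.13 and -0.28 ± 0.13. None of these 3 was called in any of the 3 fractions.

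The 25 genes that stood apart in the first KO low polysome library also included Nnat (207 counts, against 31 and 21 in the other 2 libraries of the group), Crabp1 (146 against 9 and 13), Dlk1 (125 against 18 and 29), Ptn (56 against 0 and 3), Nr2f1 (47 against 7 and 5) and Acta2 (37 against 1 and 6). Fignl2, with 3 let-7 matches, held 69 counts against 1 and 9.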
